A study of Mus musculus with 8 samples.

Results

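Collagens are the structural proteins of the extracellular matrix, and the array used here carries probes for 37 mouse collagen genes out of 16593 named genes. A gene was taken as a collagen when its annotated symbol reads Col, a number, the letter a and a number, which gave 59 probes of 25697, and each gene was followed by its probe with the highest mean level. The genes were grouped by the known assembly of their products into 11 fibrillar collagens, 8 basement membrane collagens and 18 others. RNA came from prostates of C57Bl/6 mice, 1 Illumina expression beadchip array per sample. Wild-type prostates without tumour were taken at 30 weeks of age (2 arrays), and tumours of untreated TRAMP mice at 30 weeks (2 arrays). Tumours of TRAMP mice given cromolyn from 8 weeks on were taken at 24 weeks (3 arrays), and a tumour of a TRAMP KitW-sh mouse at 24 weeks (1 array). The TRAMP transgene expresses viral T antigens in prostate epithelium under a probasin promoter. Cromolyn is a mast cell stabiliser, and KitW-sh is a regulatory mutation at the Kit locus that leaves mice without mast cells. All 3 tumour groups carry the transgene, and the untreated tumours were 6 weeks older than the others, so that age and treatment or genotype cannot be told apart.

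Collagen alpha chains wind around each other into a helix that is secreted and assembled outside the cell. Fibrillar collagens, mainly of types I, III and V, form the fibres of connective tissue and are known as products of fibroblasts. Type IV collagen forms the network of basement membranes, the sheets under epithelia and around smooth muscle cells and vessels. Col4a1 and Col4a2 encode the chains found in nearly all basement membranes. Col4a5 encodes a chain that assembles with the products of Col4a3 and Col4a4 or with that of Col4a6, in networks known from certain epithelia and from smooth muscle. The collagens of types VII and XVII belong to the junction that anchors epithelial cells to the matrix, and type VI forms beaded filaments.

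The type IV genes lie in head-to-head pairs, and in the 24-week tumours both genes of the pair Col4a5 and Col4a6 were lower, whereas neither gene of the pair Col4a1 and Col4a2 was called, so these promoters are shown. The sequences are from RefSeq on GRCm38.p6 and run 5′ to 3′ on the strand of each gene, from 250 bases before the start site to 50 after it. Capitals mark matches, on either strand, to the GC box GGGCGG and the CCAAT box CCAAT, and the TATA box TATAAA was also searched. Col4a1 is at chr8:11312777-11313076 (minus strand), Col4a2 at chr8:11312555-11312854 (plus), Col4a5 at chrX:141475169-141475468 (plus) and Col4a6 at chrX:141474027-141474326 (minus).
Col4a1: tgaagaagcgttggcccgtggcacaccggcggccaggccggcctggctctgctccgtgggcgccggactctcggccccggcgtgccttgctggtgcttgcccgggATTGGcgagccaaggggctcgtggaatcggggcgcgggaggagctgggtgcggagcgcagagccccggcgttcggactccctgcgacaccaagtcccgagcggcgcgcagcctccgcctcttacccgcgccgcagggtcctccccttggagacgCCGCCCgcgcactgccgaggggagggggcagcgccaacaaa
Col4a2: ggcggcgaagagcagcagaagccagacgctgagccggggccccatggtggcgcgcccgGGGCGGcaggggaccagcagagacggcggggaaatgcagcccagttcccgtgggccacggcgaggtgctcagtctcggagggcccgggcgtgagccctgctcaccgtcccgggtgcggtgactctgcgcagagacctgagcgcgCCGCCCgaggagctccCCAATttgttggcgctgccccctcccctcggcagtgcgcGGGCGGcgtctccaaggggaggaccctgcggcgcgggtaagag
Col4a5: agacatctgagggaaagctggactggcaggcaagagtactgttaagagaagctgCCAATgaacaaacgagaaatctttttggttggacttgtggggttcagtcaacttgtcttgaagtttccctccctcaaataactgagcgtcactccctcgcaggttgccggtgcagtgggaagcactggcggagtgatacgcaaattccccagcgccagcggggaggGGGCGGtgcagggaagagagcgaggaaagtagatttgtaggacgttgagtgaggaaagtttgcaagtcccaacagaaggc
Col4a6: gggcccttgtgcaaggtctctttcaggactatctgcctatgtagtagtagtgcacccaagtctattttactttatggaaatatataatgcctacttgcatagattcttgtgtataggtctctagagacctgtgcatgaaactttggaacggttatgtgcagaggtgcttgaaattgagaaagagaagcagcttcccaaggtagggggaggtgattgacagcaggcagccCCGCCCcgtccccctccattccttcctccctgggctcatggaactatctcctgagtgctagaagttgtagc

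The start sites of Col4a1 and Col4a2 are 21 bases apart, and the windows printed for them share 78 bases. Those of Col4a5 and Col4a6 are 1343 bases apart, and their windows share 0 bases. GC content was 74.0% for Col4a1 and 73.7% for Col4a2, above the upper quartile of all promoters (61.7%), and 52.7% for Col4a5 and 48.3% for Col4a6, around the median of all promoters (52.7%). The GC box was found 1 time in Col4a1, 3 times in Col4a2 and 1 time each in Col4a5 and Col4a6. The CCAAT box was found 1 time in all of them but Col4a6, and TATAAA in none. Over 32851 promoter windows of that length, 35.7% hold the GC box, 37.4% the CCAAT box and 13.6% TATAAA. Within each printed sequence, no matches to different boxes overlapped. The GC box of Col4a1 and the last GC box of Col4a2 are the same bases, read from opposite strands, in the stretch that their windows share. A match describes the letters of the window and shows no binding.

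Levels are given as log2 intensity after background correction and quantile normalization, where 7.01 is the limit set from the dim probes. A level belongs to 1 probe, so levels are compared between arrays and not between genes. Of the 37 collagens, 30 were above the limit on at least 1 array and were tested, 11 were above it on all 8 arrays, and 7 were above it on none. The untested genes were Col11a1 among the fibrillar collagens and Col6a6, Col9a3, Col10a1, Col13a1, Col19a1 and Col25a1 among the others. Differences are log2 differences with their standard error from limma, fitted to all 13072 features with 1 spread pooled over the groups. They are called at a two-sided p, adjusted by Benjamini and Hochberg, under 0.05. The single KitW-sh array takes its spread from the other groups. The labels do not state that replicates came from different animals, so p-values cover only the spread among these samples, part or all of which could be technical.

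The 3 cromolyn tumours and the KitW-sh tumour stood apart from the rest of the series. Across all tested features, arrays of untreated tumours correlated with each other at 0.984 and with cromolyn arrays at 0.772 to 0.797, while cromolyn and KitW-sh arrays correlated at 0.939 to 0.975. Markers of the labelled tissue were checked on every array. The mean level of 6 epithelial markers was 12.32 to 13.01 in wild type and untreated TRAMP, 6.67 to 8.86 with cromolyn and 9.19 in KitW-sh, and of the 4 prostate secretory genes Pbsn and Tgm4 were not above the limit on any 24-week array. The other 2 were not above it on cromolyn replicates 1 and 2, but Msmb read 8.92 on cromolyn replicate 3 and 9.87 in KitW-sh, against 15.52 and 15.50 in untreated tumours. Spink1 read 10.05 and 14.14 on those arrays, against 7.19 and 14.93 in untreated tumours, which overlap the KitW-sh value. The mean of 4 neuroendocrine markers was 6.80 to 7.83 at 30 weeks and 11.99 to 13.19 in the 24-week tumours. In RNA of whole tissue, fewer cells of a type and less RNA per cell cannot be told apart.

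**Figure D1:**
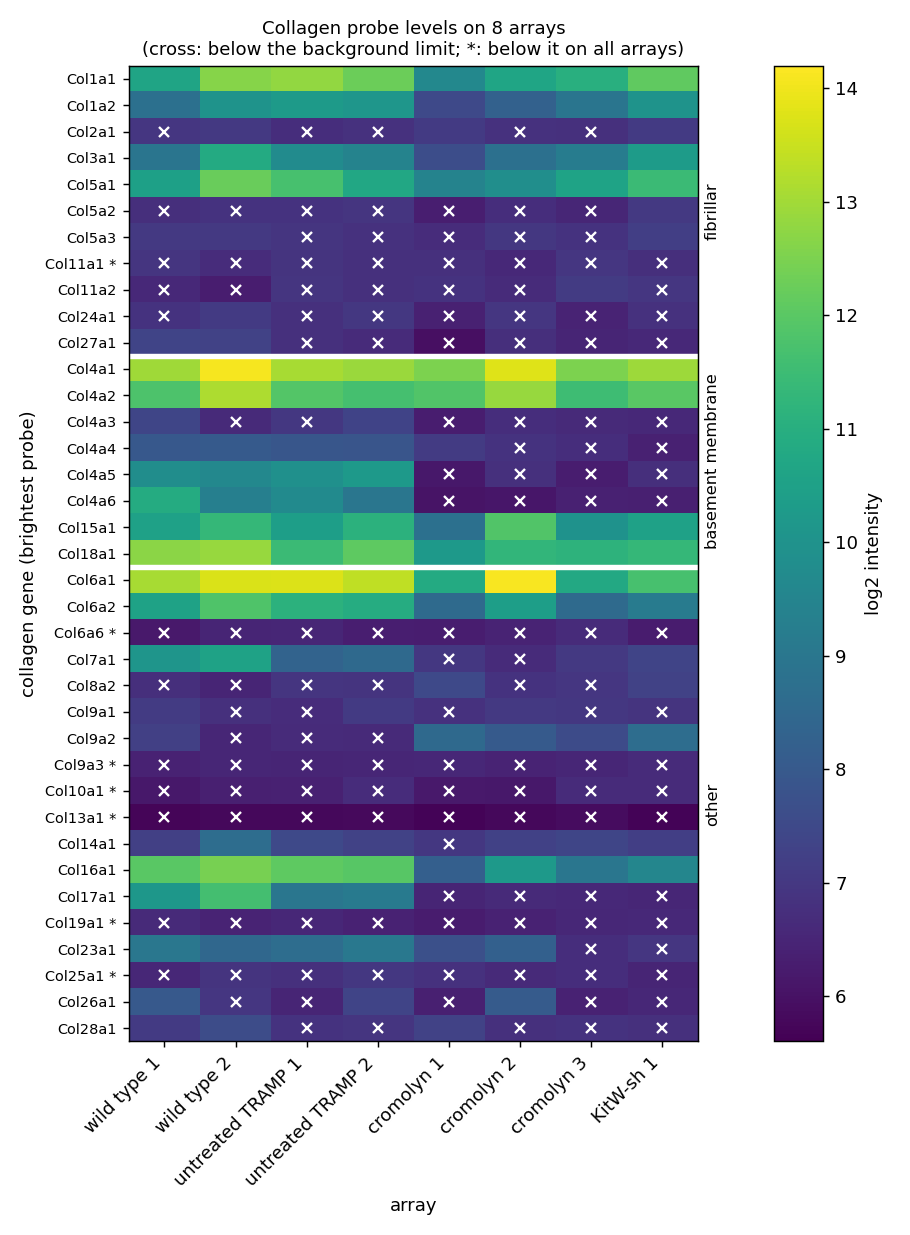
Log2 intensity (colour) of the brightest probe of each of 37 collagen genes (rows, by class) on 8 arrays (columns), with a cross where the probe was below the background limit and a star on the 7 genes below it on all arrays. Colours compare arrays within a row: Col4a5, Col4a6 and Col17a1 cross from above the limit at 30 weeks to below it on all 24-week arrays.

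Untreated TRAMP tumours were compared with wild-type prostates of the same age, which asks how collagens differ between tumour and normal prostate. Of the 30 tested collagens, 1 fell and 0 rose, where 2.88% of all 13072 features fell and 3.73% rose (6.61% called in all). The groups did not overlap in 12 of 30, with tumours higher in 4 and lower in 8, beside 31% and 30% of features. At an unadjusted p under 0.05 limma gave 3 of 30 collagens, none of them higher, beside 21.5% of features. The one that fell was Col7a1, whose product forms the anchoring fibrils beneath epithelia. A second, dimmer Col7a1 probe read 7.38 and 7.10 in wild type and 6.75 and 7.05 in untreated tumours (−0.34, adjusted p = 0.409). The brighter probe, which was the one tested, read 10.09 and 10.57 in wild type and 8.34 and 8.53 in untreated tumours, so that the groups did not overlap. The log2 difference was −1.89 ± 0.24 (adjusted p = 0.00712), and it missed the threshold without untreated replicate 1 (adjusted p = 0.0665) or replicate 2 (adjusted p = 0.0569).

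Col17a1, which encodes the transmembrane collagen of hemidesmosomes, read 10.16 and 11.64 in wild type and 8.98 and 9.14 in untreated tumours. Both wild-type arrays were above both tumour arrays, but the difference of −1.84 ± 0.44 missed the threshold (adjusted p = 0.0598). It passed without wild-type replicate 1, at −2.58 ± 0.21 (adjusted p = 0.00586), so that 2 collagens were lower there. The mean level of 4 basal epithelial markers was 11.81 and 12.85 in wild type and 9.94 and 10.13 in untreated tumours, with 2 of 4 called lower. Of the adipocyte markers 4 of 4 were lower, with a median difference of −3.19, and of the skeletal muscle markers 4 of 5, with a median of −3.99. The 9 endothelial markers had a median of −1.19, with 1 called lower by limma and 7 at an unadjusted p under 0.05. Over all features, 2.88% were called lower and 21.5% had an unadjusted p under 0.05. The part of these markers in the Col7a1 and Col17a1 values was not tested. Col18a1, the precursor of endostatin in basement membranes, read 12.69 and 12.87 against 11.45 and 12.06, without overlap and with a difference of −1.03 ± 0.39 (adjusted p = 0.19).

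The main fibrillar genes varied more between the 2 wild-type arrays than between wild type and tumour. Col1a1 and Col1a2, which encode the chains of type I collagen, read 10.63 and 12.63, and 8.79 and 10.02, in wild type. In untreated tumours they read 12.80 and 12.28, and 10.27 and 10.13. The differences were 0.91 ± 0.72 for Col1a1 (adjusted p = 0.541) and 0.79 ± 0.54 for Col1a2 (adjusted p = 0.472). The type III gene Col3a1 read 8.93 and 10.87 in wild type and 9.74 and 9.46 in untreated tumours, both tumour arrays lying between the wild-type arrays (−0.31 ± 0.72, adjusted p = 0.87).

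Col4a1 read 12.97 and 14.09 in wild type and 13.08 and 12.92 in untreated tumours (−0.53 ± 0.53, adjusted p = 0.646). Col4a2 read 11.80 and 13.15 against 11.89 and 11.68 (−0.69 ± 0.56, adjusted p = 0.552), and in both genes the groups overlapped. Median differences of the tested members were −0.10 for the fibrillar, −0.34 for the basement membrane and −0.21 for the other collagens, beside −0.01 over all features. Wild-type replicate 2 was above replicate 1 by more than 1 log2 unit in 9 of 30 collagens, compared with 4.66% of features. It was below by more than 1 in 2 of 30, Col4a6 and Col26a1, compared with 1.34% of features. The 12 fibroblast markers moved the same way on these arrays, with a mean of 10.47 on replicate 1 and 11.42 on replicate 2, and so did the 9 endothelial markers, at 9.58 and 10.67. Other lists also rose, such as the basal epithelial (11.81 and 12.85) and leukocyte markers (7.54 and 8.52). The smooth muscle markers were level, at 12.84 and 12.85, and the prostate secretory genes fell, at 15.08 and 14.07. The part of any of these cells in the collagen values was not tested.

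**Figure D2:**
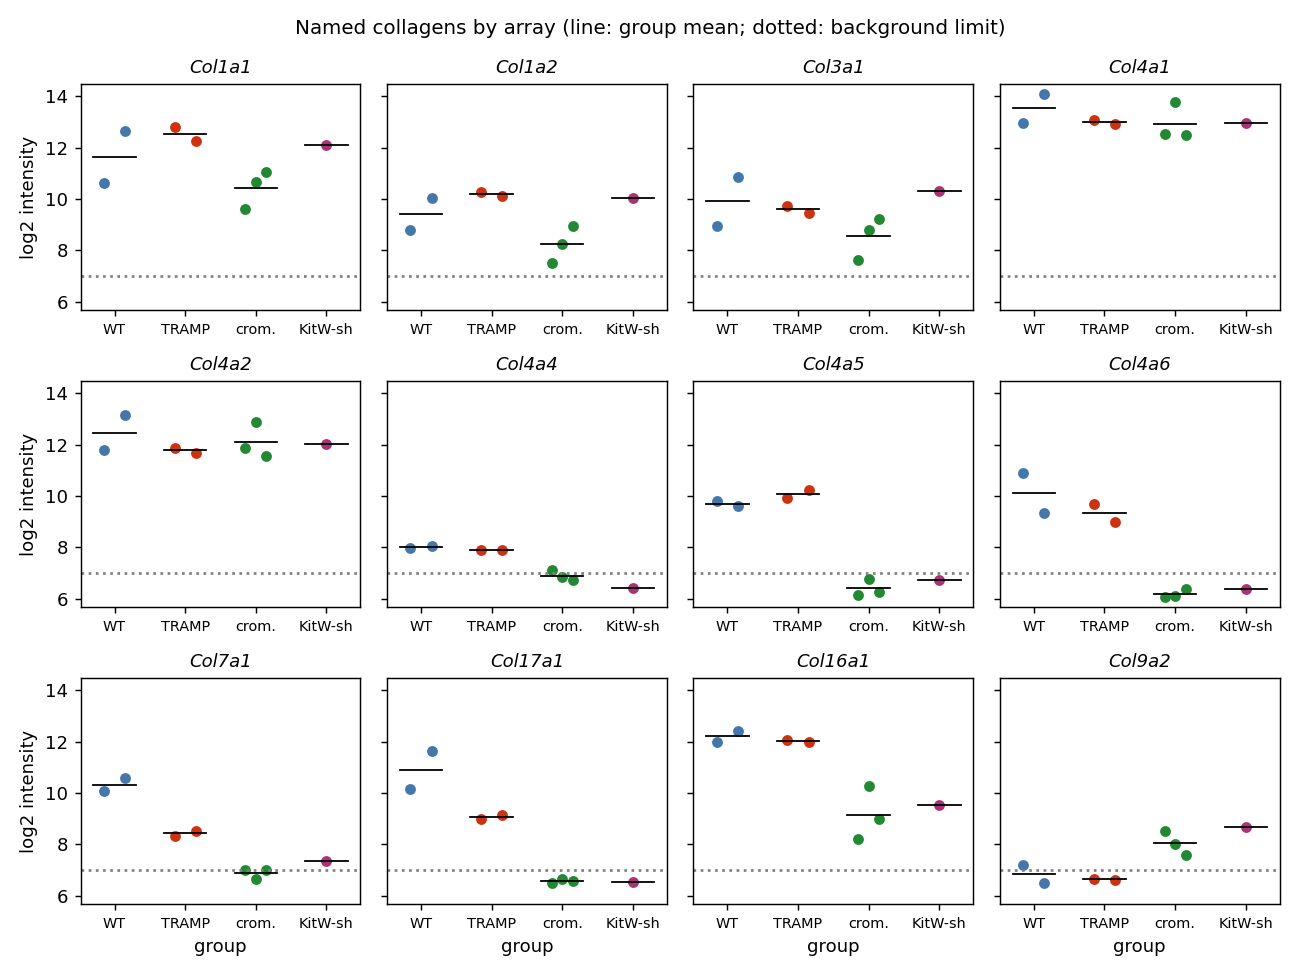
Log2 intensity of 12 collagens on each array (points) by group, with the group mean (line) and the background limit (dotted). The 4 24-week arrays lie at or near the limit for Col4a4, Col4a5, Col4a6, Col7a1 and Col17a1, above the 30-week tumours for Col9a2, and overlap the 30-week arrays for Col4a1 and Col4a2.

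Tumours of cromolyn-treated mice were compared with untreated tumours, which asks how collagens differ when mast cells are stabilised by the drug. Of the 30 tested collagens, 8 fell and 1 rose, beside 18% of all features lower and 18.8% higher (36.9% called in all). Those that fell were the fibrillar genes Col1a1 and Col1a2, the type IV genes Col4a4, Col4a5 and Col4a6, and Col7a1, Col16a1 and Col17a1 among the others. The one that rose was Col9a2. A share of 30% of the tested collagens was called, below the share of all features. Without untreated replicate 1, 5 were lower and 0 higher. Median differences of the tested members were −0.34, −0.74 and −0.75 for the fibrillar, basement membrane and other collagens, and 0.05 over all features.

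Of the type IV genes, Col4a5 and Col4a6 both fell, and neither Col4a1 nor Col4a2 was called. In the remaining pair Col4a4 fell and Col4a3 was not called. Col4a5 read 9.80 and 9.60 in wild type, 9.93 and 10.24 in untreated tumours and 6.15, 6.79 and 6.28 with cromolyn. Every cromolyn array was below the background limit and every 30-week array was well above it. The difference from untreated tumours was −3.68 ± 0.24 (adjusted p = 0.000117), and since only a bound is measured on the dim side, Col4a5 was at least 8.45-fold lower. Bounds of this kind set the mean of the brighter group against the background limit.

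Its head-to-head partner Col4a6 read 10.90 and 9.32 in wild type, 9.71 and 8.98 in untreated tumours and 6.06, 6.11 and 6.38 with cromolyn. It was also below the limit on all cromolyn arrays and differed by −3.16 ± 0.46 (adjusted p = 0.00266), at least 5.06-fold lower. A second probe of Col4a6 gave −2.47 (adjusted p = 0.00852). Col4a4, whose product joins that of Col4a5, read 7.89 and 7.88 in untreated tumours and 7.10, 6.85 and 6.74 with cromolyn, where 1 array was above the limit (−0.99 ± 0.17, adjusted p = 0.00488). Its neighbour Col4a3 lay near the limit on all arrays, from 6.30 to 7.39, and was not called.

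Col4a1 and Col4a2 had no such difference. Col4a1 read 13.08 and 12.92 in untreated tumours and 12.52, 13.79 and 12.51 with cromolyn. Col4a2 read 11.89 and 11.68 in untreated tumours and 11.88, 12.88 and 11.54 with cromolyn. In both genes the untreated values lay inside the cromolyn range, with differences of −0.06 ± 0.49 for Col4a1 (adjusted p = 0.939) and 0.32 ± 0.51 for Col4a2 (adjusted p = 0.67). The difference between the pairs was not tested.

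Among the fibrillar collagens, Col1a1 read 12.80 and 12.28 in untreated tumours and 9.60, 10.66 and 11.04 with cromolyn, and Col1a2 read 10.27 and 10.13 against 7.51, 8.26 and 8.95. Both genes were above the limit on every array, and no cromolyn array reached an untreated one. The differences were −2.10 ± 0.65 for Col1a1 (adjusted p = 0.0447) and −1.96 ± 0.50 for Col1a2 (adjusted p = 0.0217). The Col1a1 call was lost without any 1 of the 5 arrays compared, with adjusted p from 0.0553 (without cromolyn replicate 3) over 0.0597 (cromolyn replicate 2), 0.0993 (cromolyn replicate 1) and 0.126 (untreated replicate 2) to 0.215 (untreated replicate 1). It was also lost with no filter on dim probes (adjusted p = 0.0576). The Col1a2 call was lost without untreated replicate 1 (adjusted p = 0.118) or replicate 2 (adjusted p = 0.0972).

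Col3a1 and Col5a1, which join type I collagen in fibres, were not called. Col3a1 read 9.74 and 9.46 in untreated tumours and 7.63, 8.79 and 9.21 with cromolyn (−1.05 ± 0.65, adjusted p = 0.257). Col5a1 read 11.70 and 10.77 in untreated tumours and 9.45, 9.84 and 10.59 with cromolyn (−1.27 ± 0.59, adjusted p = 0.14). In both, every cromolyn array was below both untreated arrays, a pattern seen in 15 of 30 collagens and 30.4% of all features. The opposite pattern was seen in 1 collagen, Col9a2, and 33.3% of features. The other tested fibrillar genes lay near the limit, and none was called.

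Of the collagens at the epithelial junction, Col17a1 read 8.98 and 9.14 in untreated tumours and 6.51, 6.64 and 6.58 with cromolyn, below the limit on all 3 arrays. It differed by −2.48 ± 0.40 (adjusted p = 0.00385), at least 4.15-fold lower, and its other probes gave −2.67 (adjusted p = 0.0033) and −0.92 (adjusted p = 0.0863). Col7a1 read 8.34 and 8.53 in untreated tumours and 6.99, 6.66 and 7.02 with cromolyn (−1.54 ± 0.22, adjusted p = 0.00217). Its cromolyn values were at the limit, 1 array just above it. A second Col7a1 probe gave −0.66 (adjusted p = 0.0361), but was near the limit in untreated tumours, at 6.75 and 7.05. In KitW-sh against untreated tumours that probe gave −0.50 and was not called.

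Col16a1, whose product associates with fibrils without forming them, read 12.07 and 11.98 in untreated tumours and 8.20, 10.26 and 8.98 with cromolyn. All its values were above the limit and the groups were apart (−2.88 ± 0.55, adjusted p = 0.00762), and the call was lost without untreated replicate 1 (adjusted p = 0.0552). Col9a2, which encodes a chain of a fibril-associated collagen known from cartilage, read 6.66 and 6.62 in untreated tumours, both below the limit, and 8.54, 8.03 and 7.57 with cromolyn. It was the only collagen that rose (1.41 ± 0.33, adjusted p = 0.0165), at least 2.06-fold higher. That call was lost without untreated replicate 1 (adjusted p = 0.0902) or replicate 2 (adjusted p = 0.0952). The other cartilage collagens on the array, Col2a1, Col9a1, Col9a3, Col10a1, Col11a1 and Col11a2, stayed near or under the limit.

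The type VI genes were spread widely among the cromolyn tumours. Col6a1 read 13.73 and 13.38 in untreated tumours and 10.87, 14.12 and 10.77 with cromolyn, and Col6a2, next to it on chromosome 10, read 11.12 and 10.93 against 8.59, 10.42 and 8.56. Cromolyn replicate 2 was near or above the untreated level in both genes and the other replicates lay well below it. With all arrays the differences were −1.64 ± 0.98 for Col6a1 (adjusted p = 0.242) and −1.83 ± 0.64 for Col6a2 (adjusted p = 0.0651). Without cromolyn replicate 2 both passed, at −2.73 ± 0.26 (adjusted p = 0.000704) and −2.45 ± 0.41 (adjusted p = 0.00532). The transmembrane collagen gene Col23a1 also passed without that array, at −1.65 ± 0.38 (adjusted p = 0.0171), from −1.31 ± 0.45 (adjusted p = 0.0596) with it.

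Cromolyn replicate 2 was the highest of its group in 17 of 30 collagens, compared with 35.2% of features. Some of these, such as Col5a3 and Col17a1, were below the limit on all cromolyn arrays, so that their order is among background values. The SD of the cromolyn arrays passed 1 log2 unit in 4 of 30 collagens and in 5.55% of features. On cromolyn replicate 2 the 4 basal epithelial markers had a mean of 7.76, against 6.58 and 6.87 on the other cromolyn arrays. Of the 4, Krt14 was the one above the limit there, at 11.02 against 6.57 and 6.92, while Krt5, Krt15 and Trp63 read 6.65, 6.91 and 6.45. The 5 skeletal muscle markers had a mean of 8.15 against 7.16 and 7.21. Their part in the collagen values was not tested.

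**Figure D3:**
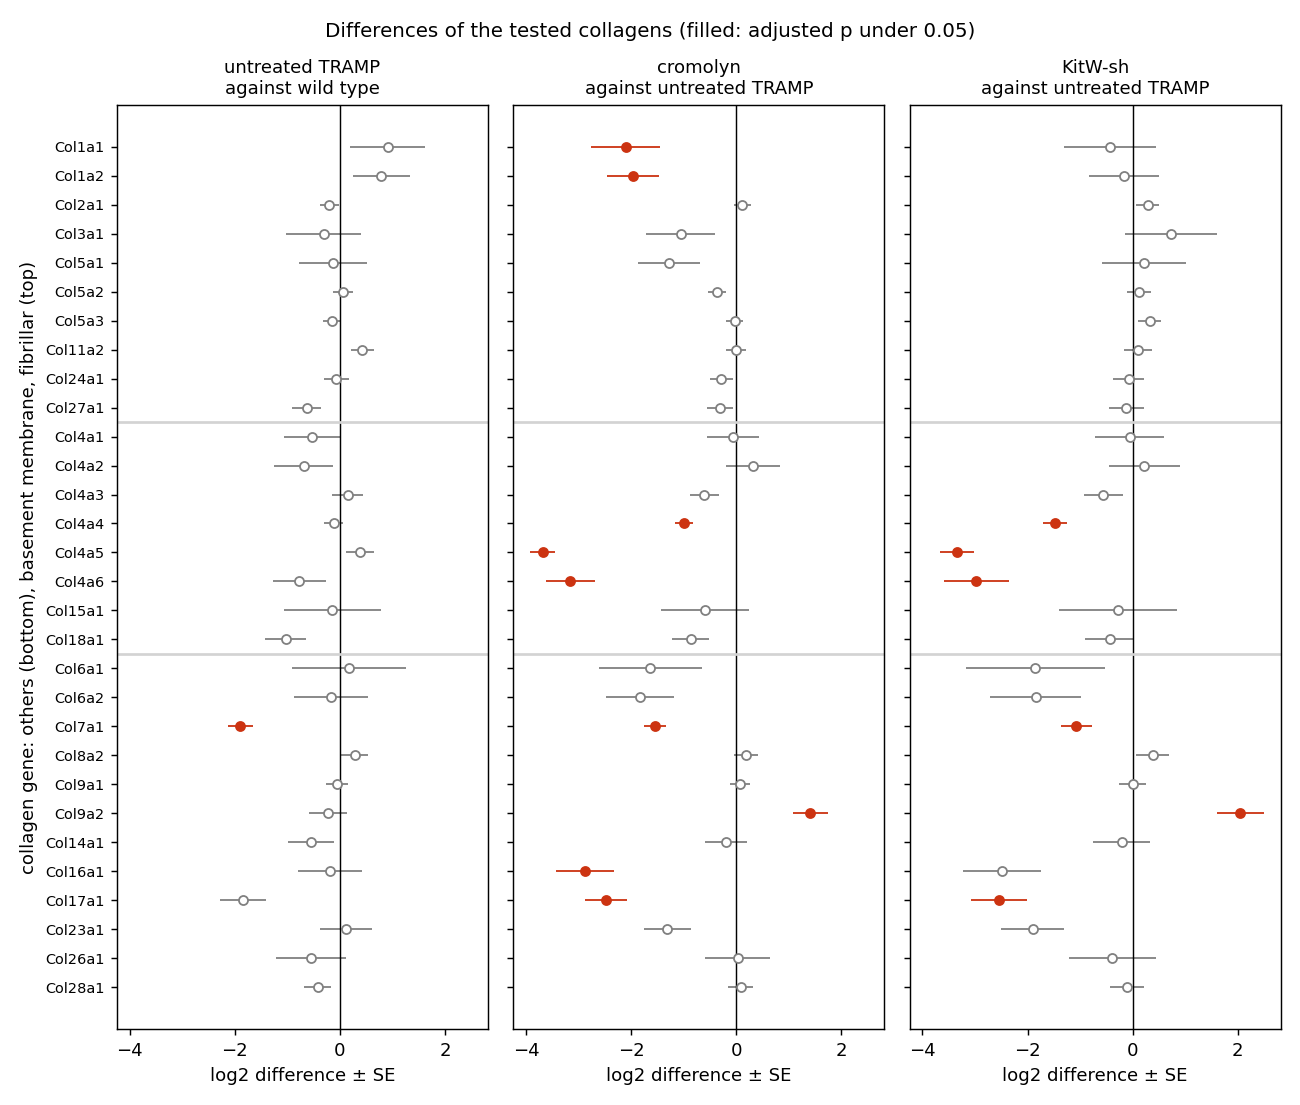
Log2 difference ± SE (x axis) of the 30 tested collagens (y axis, by class) in 3 comparisons, filled where the adjusted p was under 0.05. The left panel has 1 filled point, the middle panel 9 and the right panel 6, and Col4a1 and Col4a2 sit near 0 in both of the last comparisons.

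The KitW-sh tumour was compared with the same 2 untreated arrays, which asks how collagens differ when mast cells are absent by genotype. Because the cromolyn and KitW-sh comparisons share these arrays, their values are given side by side and no overlap is drawn from them. Of the 30 tested collagens, 5 fell and 1 rose, beside 11.2% of features lower and 11.4% higher (22.6% in all). Those that fell were Col4a4, Col4a5, Col4a6, Col7a1 and Col17a1, and the one that rose was Col9a2. Without untreated replicate 1, 2 were lower and 0 higher. The KitW-sh array lay below both untreated arrays in 16 of 30 collagens and above both in 8, beside 43.7% and 45.8% of features. The 8 include Col5a2, which was above the limit on this array alone and was tested only for that reason. Median differences were 0.11, −0.50 and −0.73 for the fibrillar, basement membrane and other collagens, beside 0.01 over all features.

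In the basement membrane class, Col4a5 read 6.74 in KitW-sh, below the limit and under both untreated values (−3.34 ± 0.32, adjusted p = 0.00123, at least 8.46-fold lower). Col4a6 read 6.37, also below the limit, with a difference of −2.98 ± 0.62 (adjusted p = 0.0183, at least 5.06-fold lower), and lost its call without untreated replicate 1 (adjusted p = 0.0882). Col4a4 read 6.40, the lowest of the 8 arrays (−1.48 ± 0.23, adjusted p = 0.00635, at least 1.84-fold lower). The calls of Col4a4 and Col4a5 held without any 1 array. A second, dimmer probe of Col4a4 read 6.87 and 7.20 in untreated tumours and 6.21 in KitW-sh (−0.82) and was not called. With cromolyn that probe gave −0.76 (adjusted p = 0.0159). Col4a1 read 12.94, between the untreated values, and Col4a2 read 12.01, just above them, with differences of −0.05 ± 0.65 (adjusted p = 0.968) and 0.22 ± 0.68 (adjusted p = 0.866).

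At the epithelial junction, Col17a1 read 6.52 in KitW-sh, below the limit (−2.54 ± 0.54, adjusted p = 0.0189, at least 4.15-fold lower). The call was lost without untreated replicate 1 (adjusted p = 0.0752) or replicate 2 (adjusted p = 0.0844), and with no background correction (adjusted p = 0.0504). The other Col17a1 probes gave −2.73, which was called, and −0.97, which was not. Col7a1 read 7.36, above the limit and under both untreated values (−1.07 ± 0.29, adjusted p = 0.0415). That call was lost without untreated replicate 1 (adjusted p = 0.119) or 2 (adjusted p = 0.173) and without cromolyn replicate 1 (adjusted p = 0.0531) or 3 (adjusted p = 0.0593), which enter through the pooled spread, and with no background correction (adjusted p = 0.0546).

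Col9a2 read 8.69 in KitW-sh, the highest of the 8 arrays (2.05 ± 0.44, adjusted p = 0.0206, at least 3.20-fold higher), with the call lost without untreated replicate 1 (adjusted p = 0.0864) or replicate 2 (adjusted p = 0.0872). Col16a1 read 9.54, far under the untreated values, but the difference of −2.49 ± 0.74 missed the threshold (adjusted p = 0.0551). It passed without cromolyn replicate 1 (adjusted p = 0.0252) or 2 (adjusted p = 0.00557). Without cromolyn replicate 2, Col6a1 (−1.85 ± 0.32, adjusted p = 0.00947), Col6a2 (−1.85 ± 0.50, adjusted p = 0.0388) and Col23a1 (−1.90 ± 0.46, adjusted p = 0.0286) also passed, so that 9 collagens were lower. With all arrays, these had adjusted p-values of 0.375, 0.179 and 0.0646.

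The fibrillar genes of the KitW-sh tumour lay near those of untreated tumours. Col1a1 read 12.11 in KitW-sh (−0.43 ± 0.88, adjusted p = 0.792), and Col1a2 read 10.03 (−0.17 ± 0.66, adjusted p = 0.899), both a little under the untreated values. Col3a1 read 10.33 (0.73 ± 0.88, adjusted p = 0.623), above them, and Col5a1 read 11.45 (0.22 ± 0.79, adjusted p = 0.89), between them. In limma 0 fibrillar collagens were called, and 0 of 10 had an unadjusted p under 0.05, beside 35.7% of features. With only the groups compared in the fit, Col3a1 passed as higher, by the same 0.73 but with a standard error of 0.19, and it passed in no other alternative. The spread in that fit came from the 2 untreated arrays alone. For Col3a1 their SD was 0.20, against 1.37 in wild type and 0.82 with cromolyn.

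Set directly against the 3 cromolyn tumours, the KitW-sh tumour had 0 of 30 collagens called by limma, beside 0.0229% of all features, and 1 at an unadjusted p under 0.05, beside 5.42% of features. That one was Col1a2, higher by 1.79 ± 0.63 (adjusted p = 0.841). Col3a1 was higher by 1.79 ± 0.83, Col1a1 by 1.67 ± 0.83 and Col5a1 by 1.49 ± 0.74, none passing the test. The KitW-sh array was above all 3 cromolyn arrays in 6 of 10 tested fibrillar collagens and below all of them in 0, whereas 23.9% of features were above and 21.3% below. Among the 6, Col5a2 and Col5a3 read 7.01 and 7.20 in KitW-sh, near the limit, and were below it on all cromolyn arrays. Col5a2 was above the limit on the KitW-sh array alone and was tested only for that reason, so its place in this count was set by the filter. Among the basement membrane collagens 1 of 8 was above and 1 below, and among the others 2 of 12 were above and 0 below. Over these arrays the 12 fibroblast markers had a mean of 8.52, 9.24 and 9.42 with cromolyn and 9.93 in KitW-sh, and the relation to the fibrillar values was not tested.

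Against wild type, which was 6 weeks older, 10 of 30 collagens were called with cromolyn (45.7% of features) and 7 in KitW-sh (31.1% of features). With cromolyn 9 were lower and 1 higher, beside 22.8% and 22.9% of features, and in KitW-sh 6 were lower and 1 higher, beside 15.2% and 15.8%. In both, Col4a4, Col4a5, Col4a6, Col7a1, Col16a1 and Col17a1 were lower and Col9a2 was higher, and these comparisons share the wild-type arrays. In the same comparisons 4 of 4 basal epithelial and 5 of 5 skeletal muscle markers were lower, and 4 of 4 adipocyte markers with cromolyn and 3 of 4 in KitW-sh, and their part was not tested. Col7a1 was lower by 3.44 ± 0.22 log2 units with cromolyn (adjusted p = 8.13e-05) and by 2.96 ± 0.29 in KitW-sh (adjusted p = 0.00089). Col17a1 was at least 14.9-fold lower in both, with adjusted p = 0.000291 and 0.00186. With cromolyn, Col18a1 (−1.89 ± 0.35, adjusted p = 0.0054), Col27a1 (at least 1.26-fold, below the limit on all 3 cromolyn arrays, adjusted p = 0.0218) and Col6a2 (−2.00 ± 0.64, adjusted p = 0.0416) were called lower as well. Without 1 array, several of these calls were lost. Col27a1 had an adjusted p of 0.0915 and 0.0834 without wild-type replicate 1 or 2, and Col6a2 between 0.0703 and 0.24 without wild-type replicate 2, either untreated array or cromolyn replicate 1 or 3. Col9a2 had 0.0504 with cromolyn without either untreated array, and 0.159 with cromolyn and 0.0814 in KitW-sh without wild-type replicate 2. Col16a1 in KitW-sh lay between 0.0571 and 0.117 without either wild-type array, either untreated array or cromolyn replicate 3. Without cromolyn replicate 2, 11 collagens were called in KitW-sh, Col6a1 (adjusted p = 0.0103), Col6a2 (0.0241), Col18a1 (0.044) and Col23a1 (0.0283) being added.

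The levels of cell type markers differed between the groups along with the collagens. The 9 smooth muscle markers had a mean level of 12.84 and 12.85 in wild type, 12.39 and 11.90 in untreated tumours, 8.04, 8.51 and 8.54 with cromolyn and 8.59 in KitW-sh. All 9 fell with cromolyn and 8 of 9 in KitW-sh, beside 18% and 11.2% of all features lower. Cnn1, Lmod1 and Synpo2 were above the limit in none of the 24-week tumours. The 4 basal epithelial markers had a mean of 9.94 and 10.13 in untreated tumours, 6.58 to 7.76 with cromolyn and 7.07 in KitW-sh, with Krt5 and Trp63 not above the limit at 24 weeks. The part of these cells in the low Col4a5, Col4a6, Col7a1 and Col17a1 was not tested.

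Of 12 fibroblast markers, 4 fell with cromolyn and 2 in KitW-sh, beside 18% and 11.2% of all features lower. The mean of the 12 was 10.47 and 10.30 in untreated tumours, against 8.52 to 9.42 with cromolyn and 9.93 in KitW-sh. The cromolyn range thus lay below the untreated one, as for Col1a1 and Col1a2. The 9 endothelial markers are of cells that also make Col4a1 and Col4a2. Their means were 9.001 and 9.18 in untreated tumours, 9.15 to 9.42 with cromolyn and 9.45 in KitW-sh. In limma 0 of 9 were called in either comparison with untreated tumours, with 0 at an unadjusted p under 0.05. Against wild type 3 of 9 were lower with cromolyn, beside 22.8% of features. The part of fibroblasts and endothelial cells in the collagen values was not tested.

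**Figure D4:**
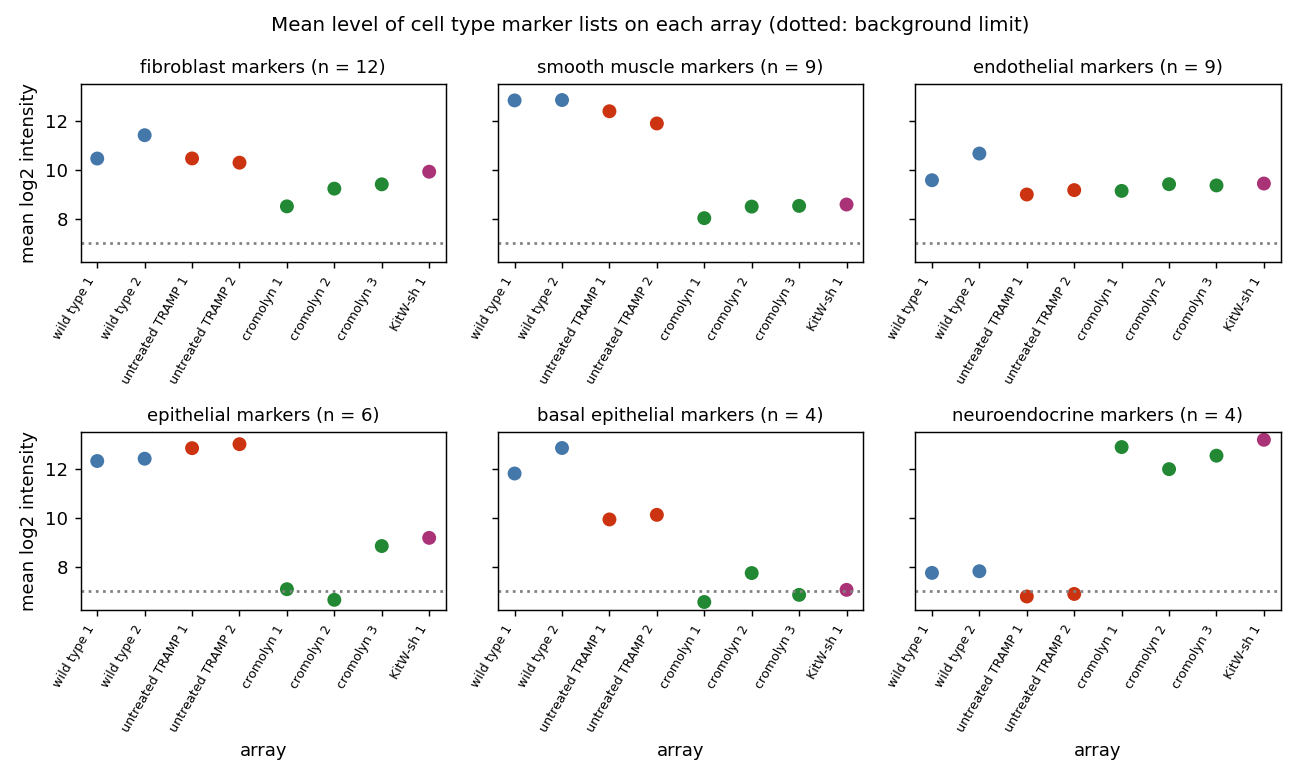
Mean log2 intensity (y axis) of 6 cell type marker lists on each of 8 arrays (x axis, coloured by group), with the background limit dotted and the number of genes in each title. Smooth muscle, epithelial and basal epithelial lists are lower on all 24-week arrays than on all 30-week arrays, and neuroendocrine markers are higher. Endothelial markers range from 9.001 on untreated replicate 1 to 10.67 on wild-type replicate 2.

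Genes that act with collagens were taken from lists by role. In untreated tumours against wild type, 3 tested members of these lists were called, beside 6.61% of all features. They were 1 of 17 genes for procollagen modification and folding and 2 of 14 fibril and matrix partners, and the other lists had none. The genes were Sec23a (0.93 ± 0.19, adjusted p = 0.0361), Thbs1 (1.40 ± 0.29, adjusted p = 0.0402) and Fmod (−1.53 ± 0.24, adjusted p = 0.0145). Each lost its call without either untreated array, among others, at adjusted p-values up to 0.241, 0.225 and 0.123. Of 17 tested genes for the modification, folding and export of procollagen, 2 fell and 1 rose with cromolyn against untreated tumours. Counts in these lists stand beside 18% of all features lower and 18.8% higher with cromolyn, and 11.2% lower and 11.4% higher in KitW-sh, with medians over all features of 0.05 and 0.01. The 3 of 17 called here are a smaller share than the 36.9% of features. P4hb, a subunit of prolyl hydroxylase, fell (−1.47 ± 0.19, adjusted p = 0.00168), as did the collagen chaperone gene Serpinh1 (−1.24 ± 0.35, adjusted p = 0.0321), and the vesicle coat gene Sec23a rose (1.27 ± 0.17, adjusted p = 0.0019). In KitW-sh P4hb fell (−1.37 ± 0.26, adjusted p = 0.0131) and Sec23a rose (1.72 ± 0.23, adjusted p = 0.00386), while Serpinh1 had a difference of −0.20. The Serpinh1 call was lost without either untreated array (adjusted p = 0.0883 and 0.193) and the P4hb call in KitW-sh without untreated replicate 1 (adjusted p = 0.0792). Of 7 genes for processing and cross-linking, 1 fell with cromolyn, the procollagen processing enhancer Pcolce (−2.11 ± 0.64, adjusted p = 0.0418), and limma called 0 in KitW-sh, with 1 at an unadjusted p under 0.05. The Pcolce call was lost without untreated replicate 1 or 2 or cromolyn replicate 1 or 3, and with no filter on dim probes.

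Partners of basement membranes fell in part. With cromolyn 5 of 11 fell and 0 rose, with a median difference of −1.04, and in KitW-sh 4 of 11 fell and 0 rose, with a median of −1.22, beside 18% and 11.2% of features lower and medians of 0.05 and 0.01. The laminin gene Lamb2 read 12.25 and 12.08 in untreated tumours, 8.29, 8.76 and 7.86 with cromolyn and 8.16 in KitW-sh, all 24-week values lying below all others. Its differences were −3.87 ± 0.30 (adjusted p = 0.000236) and −4.01 ± 0.41 (adjusted p = 0.00149). Lamc1, the common laminin gamma chain gene, fell by 1.59 ± 0.22 with cromolyn (adjusted p = 0.00189) and by 1.26 ± 0.29 in KitW-sh (adjusted p = 0.0242), the latter call being lost without either untreated array (adjusted p = 0.0749 and 0.121).

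Of 14 genes for fibril and matrix partners, 7 fell and 0 rose with cromolyn, with a median of −1.69, and 2 fell in KitW-sh, with a median of −0.79, beside the same 18% and 11.2% of features lower. Ogn, which encodes the small proteoglycan osteoglycin, read 12.14 and 11.91 in untreated tumours, 6.31, 8.60 and 7.87 with cromolyn and 8.98 in KitW-sh. Every 24-week value was below every 30-week value, and the differences were −4.44 ± 0.61 (adjusted p = 0.002) and −3.05 ± 0.81 (adjusted p = 0.0394). Fmod, another small proteoglycan that binds fibrils, was below the limit on all 24-week arrays and at least 2.47-fold lower with cromolyn (adjusted p = 0.00161) and 2.48-fold lower in KitW-sh (adjusted p = 0.0157). In KitW-sh the Fmod call was lost without either untreated array (adjusted p = 0.0715 and 0.0818), and the Ogn call without either untreated or wild-type array or cromolyn replicate 3 (adjusted p from 0.0621 to 0.142). Dcn and Lum stand in this list and among the fibroblast markers.

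Among 7 collagen receptor genes, 3 fell with cromolyn and 2 in KitW-sh, beside 18% and 11.2% of features. The integrin gene Itga1 fell by 1.78 ± 0.24 with cromolyn (adjusted p = 0.00184) and by 1.56 ± 0.32 in KitW-sh (adjusted p = 0.0171, and 0.0898 without untreated replicate 1), and Itga2 by 0.86 ± 0.21 with cromolyn (adjusted p = 0.0178). In KitW-sh Itga2 was below the limit and at least 1.66-fold lower (adjusted p = 0.022), both Itga2 calls being lost without either untreated array (adjusted p from 0.0906 to 0.117). The receptor kinase gene Ddr1 fell by 1.08 ± 0.15 with cromolyn (adjusted p = 0.00206).

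Among 7 genes for collagen breakdown, 3 fell and 1 rose with cromolyn and 1 fell and 1 rose in KitW-sh, beside 36.9% and 22.6% of features called in either direction. The collagenase gene Mmp13 read 7.08 and 7.63 in untreated tumours, 9.71, 10.35 and 9.83 with cromolyn and 8.68 in KitW-sh. All 24-week values were above all others, with differences of 2.60 ± 0.26 (adjusted p = 0.000603) and 1.33 ± 0.35 (adjusted p = 0.0394). The gelatinase gene Mmp9 fell with cromolyn (−1.49 ± 0.17, adjusted p = 0.00086) and in KitW-sh (−0.81 ± 0.22, adjusted p = 0.0434). Mmp2 fell with cromolyn (−2.28 ± 0.51, adjusted p = 0.0141), lost without either untreated array (adjusted p = 0.08 and 0.0823), and had a difference of −1.05 in KitW-sh. In KitW-sh the calls of Mmp13 and Mmp9 were lost without either untreated or wild-type array or cromolyn replicate 3. That of Mmp9 was also lost without cromolyn replicate 1 and with the replicate number as a block in the fit. That of Mmp13 was also lost with no background correction, with another normalization (cyclic loess) and with the mean of the probes of the gene.

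Of 10 genes of TGF-beta signalling, a pathway known to raise fibrillar collagen transcription, 3 fell and 2 rose with cromolyn, and 1 fell and 2 rose in KitW-sh. Of all features 18% were lower and 18.8% higher with cromolyn, and 11.2% and 11.4% in KitW-sh. The signal transducer gene Smad3 fell by 2.21 ± 0.25 with cromolyn (adjusted p = 0.000966) and by 1.92 ± 0.34 in KitW-sh (adjusted p = 0.0103, and 0.055 without untreated replicate 1). The ligand gene Tgfb2 rose in both, by 1.29 ± 0.33 (adjusted p = 0.0229) and 2.02 ± 0.44 (adjusted p = 0.0212). Without untreated replicate 2 both Tgfb2 calls were lost, and the first also without cromolyn replicate 1 or 3 (adjusted p from 0.0571 to 0.164 with cromolyn and 0.09 in KitW-sh). The target gene Ccn2 fell with cromolyn (−2.12 ± 0.53, adjusted p = 0.0203), lost without either untreated array (adjusted p = 0.0788 and 0.124), and had a difference of −0.20 in KitW-sh.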

How the data were processed

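RNA of 8 prostate samples was measured, 1 array each, and samples were grouped by their labels. The deposited table holds the intensity of 25697 probes on a linear scale, made with BeadStudio (version not given in the sources used here) per the submitters' processing notes. The authors' values had been quantile normalized, since no 2 arrays differed at any rank by more than 0.0489 log2 units, and their background had not been subtracted. A second table with 8 columns of signals, named by position on 1 slide, could not be tied to samples and was not used, so the slide could not be tested as a batch.

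Intensities were corrected with normexp (offset 50), quantile normalized and log2 transformed. From the dim side of the distribution a background mode of 181 and SD of 15.2 were estimated, and probes above 216.3, passed by 0.01 of such a background, on at least 1 array were kept. On each array 14535 to 14556 probes (56.6%) passed. Precision is limited by the number of arrays. Of the probes, 23978 had 1 gene name, 0 several and 1719 none. The 23962 found in a GRCm38.p6 gene table kept that table's names, and the brightest probe stood for a gene, leaving 13072 features (11987 named genes). Of the 37 collagens, 12 had several probes, and 0 had probes called in opposite directions in the main comparisons.

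Group means were compared with limma 3.58.1 in R 4.3.3 (4 residual and 2.62 prior degrees of freedom), with Benjamini-Hochberg adjustment within each of 6 comparisons. The steps were tested on simulated data. The members, lists, classes and rules were chosen with earlier results of these data known. Values per array were given for Col1a1, Col1a2, Col3a1, Col4a1 and Col4a2, for up to 3 called members per class, direction and comparison with the smallest p, and for members called between KitW-sh and cromolyn. Further genes named, such as Col5a1, Col6a1, Col6a2, Col18a1 and Col23a1, were chosen after their values were seen. Related genes were named by the same rule, with up to 3 per list and direction, though not all of those are described. Alternatives tried were other background corrections, normalizations, filters, probe rules and fits, and leaving out each array.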

Additional observations from a re-analysis of the deposited data

How the results depend on the processing

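Of 33 called differences of the collagens followed, 19 kept their call and direction in every alternative, and 26 did in every alternative other than leaving out an array. When 1 array was left out, the number of collagens lower in untreated TRAMP than wild type ranged from 0 to 2, lower with cromolyn than untreated from 5 to 10, and lower in KitW-sh than untreated from 2 to 9. The number higher was 0 in every case for untreated TRAMP, and ranged from 0 to 1 both with cromolyn and in KitW-sh. The numbers called against wild type ranged from 7 to 14 with cromolyn and from 5 to 11 in KitW-sh, and 0 were called between KitW-sh and cromolyn. With only the groups compared in the fit, 9 collagens were lower in KitW-sh and 2 higher. That fit takes its spread from the 2 untreated arrays alone. The labels do not state that the replicate numbers pair the samples. Same-numbered arrays deviated together with correlations of 0.002 to 0.074, which cannot show whether they were paired or shared a batch. With the replicate number as a block, 3 collagens were lower in KitW-sh, Col17a1 (adjusted p = 0.0547) and Col7a1 (adjusted p = 0.124) losing their calls, the difference of Col4a1 turned to 0.16 with cromolyn and 0.32 in KitW-sh, and that of Col1a2 in KitW-sh to 0.14.

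Directions that turned without 1 array belonged to differences that were not called. For untreated TRAMP against wild type, Col1a1 ranged from −0.092 without wild-type replicate 1 to 1.91 without wild-type replicate 2, Col3a1 from −1.28 without the first to 0.66 without the second, and Col4a1 from −1.09 without the first to 0.0295 without the second. With cromolyn, Col4a1 ranged from −0.49 without cromolyn replicate 2 to 0.16 without cromolyn replicate 3, and Col4a2 from −0.073 without cromolyn replicate 2 to 0.60 without cromolyn replicate 3. In KitW-sh, Col4a1 ranged from −0.13 without untreated replicate 2 to 0.0255 without untreated replicate 1. The causes were not tested. The same alternatives for related and marker genes were added after seeing the data, and 44 of 79 named differences kept their call in all of them.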

Other observations

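Several collagen genes are neighbours on their chromosomes, and the array holds 6 such pairs. In the pair Col3a1 and Col5a2 on chromosome 1, Col3a1 ranged from 7.63 to 10.87 over the arrays, whereas Col5a2 stayed around the background limit. Col6a1 and Col6a2 on chromosome 10 both had their lowest levels on cromolyn replicates 1 and 3. Col15a1, a basement membrane collagen known around vessels and muscle, read 10.43 and 11.14 in untreated tumours and 8.77, 11.85 and 9.98 with cromolyn, so that cromolyn replicate 2 was the highest array and replicate 1 the lowest of all 8, and it was not called in the main comparisons. Col26a1 likewise was above the limit in the cromolyn group on replicate 2 only, at 8.08.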
